A study of Mus musculus with 16 samples.

Results

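Complement components and regulators outside the C1q subunits were followed in RNA of whole retina from C57BL/6 mice, an inbred laboratory strain, read on single-colour Illumina BeadChips. The 9 genes are the activating components C3, C4b, C1s, C2 and Cfb and the inhibitors Cfi, Serping1, Cd55 and Cd59a, taken as every probe that carries one of these symbols. 8 of the 9 genes had a probe, 9 probes among the 25697 in the table, and 6 genes passed the detection filter together with 15016 probes of 11025 genes in all. Female and male mice were 3 months old in the young groups and 24 months old in the aged groups, which makes 4 groups of 4 arrays. No mouse received a drug or carried an engineered allele. Male aged 1 carries an age of 12 months although its title calls it aged, and it was kept among the aged males. Counts of calls without it are given with the alternatives at the end. The arrays lay on 5 slides, their mean intensity ran from 158 to 240, and 52.6% to 57.0% of probes were detected. No label ties the arrays of a group to separate animals. The p-values therefore rest on the spread among these samples alone, which may be technical, and the number of arrays limits the precision.

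Complement is a cascade of plasma and tissue proteins. C1q bound to a surface activates the proteases C1r and C1s, which cleave C4 and C2 into a convertase, and this enzyme cleaves C3, the component on which all routes of activation meet. Factor B (Cfb) forms the convertase of the alternative route. Serping1 encodes the C1 inhibitor, Cfi the protease factor I that cuts C3b and C4b, Cd55 a membrane protein that takes convertases apart, and Cd59a a membrane protein that blocks the pore. In the retina, complement proteins are known from microglia, Müller glia and the pigment epithelium.

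RefSeq promoter windows, 250 bases before the annotated start on build GRCm38.p6, were at hand for 3 of the 9 genes. C3 is shown as an activating component that rose with age, and Cd59a as the inhibitor with the smallest p for aging. Capitals mark matches to TTGCNNAA, the C/EBP motif, and to the interferon-stimulated response element, written GAAA, any 2 bases, GAAA, on either strand.
C3 (chr17:57228137-57228386, minus strand): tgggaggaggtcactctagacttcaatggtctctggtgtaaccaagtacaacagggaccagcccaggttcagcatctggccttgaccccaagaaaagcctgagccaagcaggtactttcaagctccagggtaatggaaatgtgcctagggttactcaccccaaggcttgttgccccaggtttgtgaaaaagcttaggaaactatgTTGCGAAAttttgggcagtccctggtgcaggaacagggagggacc
Cd59a (chr2:104095551-104095800, plus strand): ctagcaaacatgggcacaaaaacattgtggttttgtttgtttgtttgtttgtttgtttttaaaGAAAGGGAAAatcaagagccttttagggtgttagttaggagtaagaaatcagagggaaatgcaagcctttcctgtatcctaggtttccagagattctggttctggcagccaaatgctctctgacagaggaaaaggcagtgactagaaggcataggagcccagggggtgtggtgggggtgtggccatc
The C3 window held 1 C/EBP match, beginning 45 bases before the start, and 9.56% of 32851 promoter windows hold one. The Cd59a window held 1 match to the response element, beginning 187 bases before the start, against 2.98% of all windows. Neither held TTCNNNGAA, the STAT motif found in 7.02%, or the NF-kappaB consensus, found in 3.9%, and no match overlapped another. The window at hand but not shown, that of Cd55, held 0 matches to each of these motifs. A match is a run of letters and not evidence of binding.

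C1s and Cfb were not detected on any of the 16 arrays. Both C1s probes, for the protease that cleaves C4 and C2, had intensities of -4.52 to 9.51 after background subtraction, with detection p-values of 0.0551 or more. The Cfb probe, named by its older symbol H2-Bf, lay between -3.37 and 3.73 with detection p-values of 0.133 or more. Cd55 had no probe under that symbol. A probe named Daf1, a RefSeq synonym of Cd55 outside the rule that chose the members, was also detected on 0 of 16 arrays (lowest detection p-value 0.183). A probe at background puts no level on its gene, so these 3 genes enter no comparison.

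The main question of the series was how the retina changes with age in each sex. C3 and C4b were the members that rose, over both sexes: C3 was 1.40-fold and C4b 1.92-fold higher in aged than in young retinas. These 2 of the 6 members tested were called at an adjusted p under 0.05, in a comparison where 1.88% of all probes were called and 1.4% were called higher. No member was called in females alone, where 0.633% of probes were called and 0.533% called higher, or in males alone, where 0.992% were called and 0.766% called higher. At an unadjusted limma p under 0.05 there were 4 members in females, 3 in males and 4 over both sexes, against 7.14%, 14.6% and 11.1% of all probes. Each change is given on the log2 scale with its standard error (SE) from the limma model over all probes, and levels are log2 normalised intensities, which are not compared between genes.

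C3 encodes the central component of the cascade. It was detected on all 16 arrays, at low intensities of 13.3 to 61.2 after background subtraction. An offset of 16 was added before the log2 step, which narrows fold changes at such levels. The C3 levels on the young female arrays 1 to 4 were 5.45, 5.04, 5.41 and 5.69, and on the aged female arrays 6.07, 5.69, 6.17 and 5.82. In males the young arrays read 5.51, 5.10, 5.43 and 5.37, and the aged arrays 5.97, 5.79, 5.41 and 5.99. The highest young and the lowest aged array of each sex overlapped, in females by less than 0.01 and in males through male aged 3 alone, while 6 of the 8 aged arrays lay above every young one. The change was 0.54 (SE 0.15) in females (limma adjusted p = 0.201), from 5.40 ± 0.27 to 5.94 ± 0.22 (SD, n = 4 each). In males it was 0.44 (SE 0.15, limma adjusted p = 0.194), from 5.35 ± 0.18 to 5.79 ± 0.27 (SD, n = 4 each). The mean over both sexes was 0.49 (SE 0.11, limma adjusted p = 0.0215). With slide as a block it was 0.50 (adjusted p = 0.0421), and within single slides C3 was higher in aged females by 0.72 and 0.41 and in aged males by 0.46 and 0.20. The call was lost without female aged 3 (adjusted p = 0.0526), male young 2 (0.0532) or male aged 4 (0.0501), and without any filter on detection (0.0597).

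C4b, which encodes the C4 cleaved by C1s, showed the larger rise. Young females read 6.04, 6.32, 6.11 and 7.57 and aged females 7.67, 7.26, 7.72 and 7.42. Young males read 7.02, 5.85, 6.48 and 6.70 and aged males 7.02, 7.72, 7.25 and 7.59. Female young 4 lay within the aged range and the other young arrays below all 8 aged ones, so the groups overlapped in females and, by the narrow margin between male young 1 and male aged 1, not in males. Among all probes 3.88% had every aged male array above every young one. The change was 1.01 (SE 0.29) in females (limma adjusted p = 0.207), from 6.51 ± 0.72 to 7.52 ± 0.22 (SD, n = 4 each). In males it was 0.88 (SE 0.29, limma adjusted p = 0.169), from 6.51 ± 0.49 to 7.39 ± 0.32 (SD, n = 4 each). Over both sexes it was 0.94 (SE 0.20, limma adjusted p = 0.0190). With slide as a block the mean was 1.11 (adjusted p = 0.00241), and the female change became 1.39 and passed (adjusted p = 0.0240). Within slides it was 1.68 and 1.32 in females and 0.89 and 0.0053 in males, the last from male young 1 and male aged 1, the array of disputed age. Without female young 4 the female change was 1.36 (adjusted p = 0.00476) and the male change of 0.88 passed too (adjusted p = 0.0436). The call over both sexes ended without the detection filter (adjusted p = 0.0683) and with an intensity trend and robust variances (0.0612). C4a is a near-identical copy of C4b, its probe did not pass the detection filter, and whether the C4b probe also binds its transcript was not tested.

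**Figure D1:**
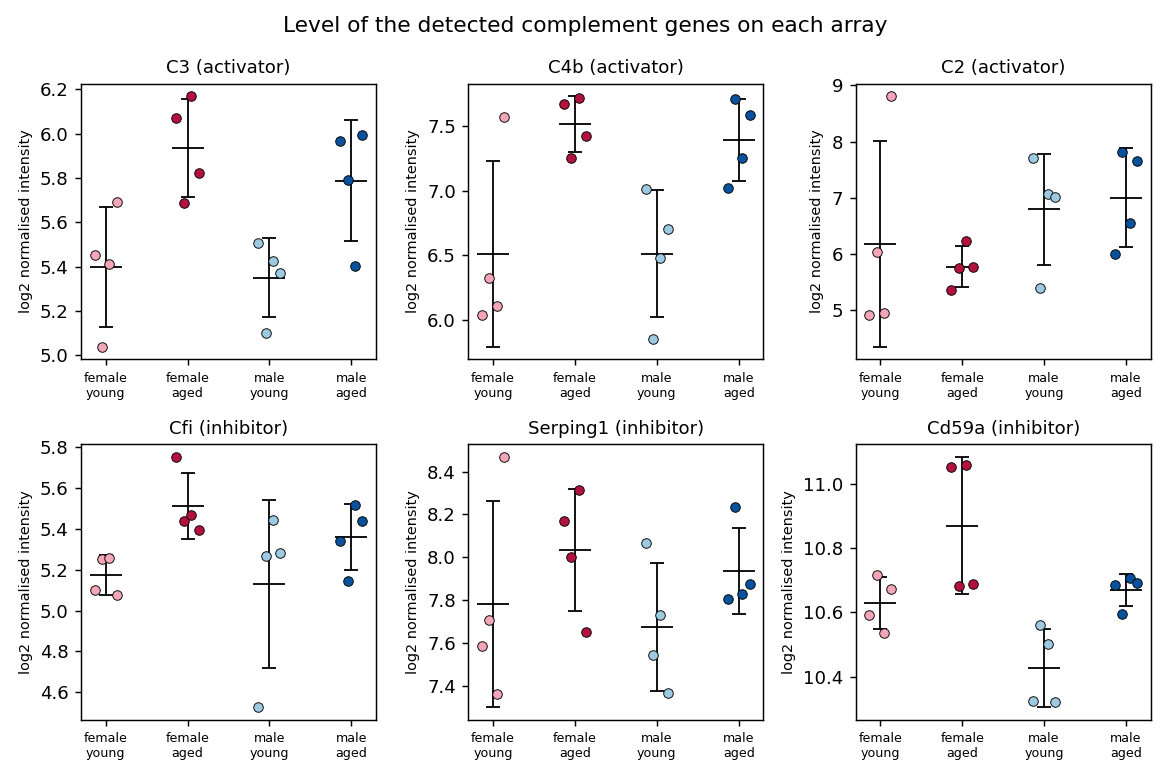
Log2 normalised intensity of the 6 detected genes on each of the 16 arrays, by group, with the group mean and SD as bars and a separate scale in each panel. C3 and C4b were higher in aged groups, while C2 spread from 4.92 to 8.81 among young females alone.

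C2, the partner of C4 in the classical convertase, spread widely between arrays of one group. Young females read 4.92, 6.04, 4.96 and 8.81 and aged females 5.35, 5.75, 6.23 and 5.77. Young males read 7.71, 5.40, 7.06 and 7.01 and aged males 6.00, 7.81, 6.55 and 7.65. The young female arrays spanned 14.8-fold and the young male arrays 4.94-fold, and the aged groups lay within those ranges or, in males, just past the top. The SD within groups was 1.14, larger than that of 99.86% of the 15016 probes tested, whose median was 0.149. The change was -0.40 (SE 0.68, limma adjusted p = 0.959) in females and 0.21 (SE 0.68, limma adjusted p = 0.916) in males, and over both sexes its 95% interval ran from -1.11 to 0.92. The sign was set by single arrays: without female young 4 the female change was 0.47, and with slide as a block it was 0.66. Female young 4 was the only array on slide 5, so the array and its slide cannot be told apart.

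By the root mean square difference over 16 arrays between levels centred on each gene's own mean, the genes most like C2 among 11024 were Tspan10 (0.29), a tetraspanin gene of pigment cells, and Myh11 (0.31), the smooth muscle myosin heavy chain. The median of all genes was 1.11. The melanin synthesis gene Tyrp1 and the melanosome gene Mlana, which stood in the marker list of the pigment epithelium, had differences of 0.39 and 0.46. The 6 arrays with the highest C2, led by female young 4, were also the 6 with the highest Tspan10 and Tyrp1, and 5 of them were among the 6 highest for Mlana. Tyrp1 was 8.44 or more on these 6 arrays and 7.73 or less on the other 10. Rpe65, the isomerase gene of the pigment epithelium, did not share this order, with 2 of those 6 arrays among its own 6 highest and a difference of 1.16. The summed linear level of the 4 fibroblast markers tested, of 6 listed, ran from 222 to 2163 in young females, 256 to 402 in aged females, 252 to 1478 in young males and 401 to 1443 in aged males. These markers did not share one order. The 6 arrays with the highest C2 were the 6 highest for Dcn, while 4 of them were among the 6 highest for Lum, 4 for Pdgfra and 3 for Col1a2. In whole tissue, fewer cells of a type and less RNA per cell cannot be told apart, and the part of pigmented tissue or fibroblasts in the C2 values was not tested.

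The inhibitors lay higher in aged retinas by smaller amounts, and none of the 3 tested was called. Cd59a, which blocks pore formation, read 10.59, 10.71, 10.54 and 10.67 in young females and 11.05, 10.68, 11.06 and 10.69 in aged females. Young males read 10.33, 10.56, 10.50 and 10.32 and aged males 10.69, 10.59, 10.71 and 10.69. All aged males lay above all young males, as for 3.88% of all probes, while in females arrays aged 2 and aged 4 lay within the young range. The changes were 0.24 (SE 0.10) in females (limma adjusted p = 0.536) and 0.24 (SE 0.10) in males (limma adjusted p = 0.257). Over both sexes Cd59a was 0.24 higher (SE 0.07), or 1.18-fold, with a limma adjusted p of 0.0904. With an intensity trend and robust variances that difference passed (adjusted p = 0.0417), as it did without female aged 2 (0.0486).

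Cfi, whose protease inactivates C3b and C4b, was near the lower end of detection, on 15 of 16 arrays. Young females read 5.10, 5.25, 5.26 and 5.07 and aged females 5.75, 5.44, 5.47 and 5.40, so that every aged array lay above every young one, as for 2.36% of all probes. Young males read 4.53, 5.27, 5.45 and 5.28 and aged males 5.34, 5.14, 5.52 and 5.44, which overlapped. The change was 0.34 (SE 0.15, limma adjusted p = 0.644) in females and 0.23 (SE 0.15, limma adjusted p = 0.513) in males. The array not detected, male young 1, was the lowest, and without it the male change was 0.030. Serping1, the inhibitor of C1r and C1s, was 7.78 ± 0.48 in young and 8.03 ± 0.29 in aged females (SD, n = 4 each), a change of 0.25 (SE 0.20, limma adjusted p = 0.899). It was 7.68 ± 0.30 in young and 7.94 ± 0.20 in aged males (SD, n = 4 each), a change of 0.26 (SE 0.20, limma adjusted p = 0.589). Without female young 4 the female difference was 0.48 (adjusted p = 0.45), and without male aged 2 the male difference was 0.16 (adjusted p = 0.784). Within slide 1, from male young 1 and male aged 1, Serping1 was -0.26, against 0.48 within slide 3, and Cfi was 0.82 against -0.032. Over both sexes the differences were 0.29 (SE 0.11, limma adjusted p = 0.282) for Cfi and 0.26 (SE 0.14, limma adjusted p = 0.573) for Serping1. Young and aged Serping1 levels overlapped in both sexes, and its highest array of all was female young 4, at 8.47.

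**Figure D2:**
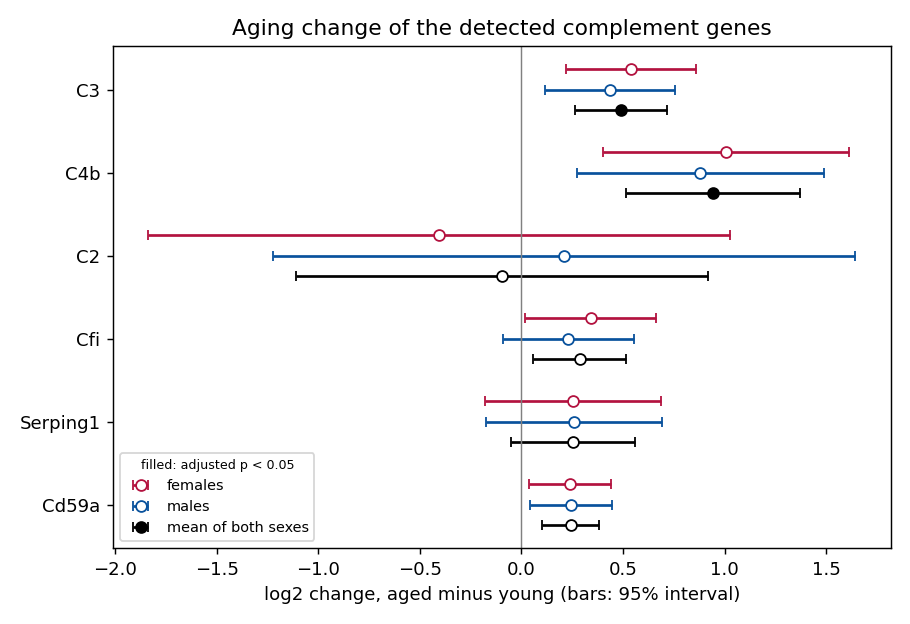
Log2 change from young to aged with 95% intervals for the 6 detected genes, in females, in males and as the mean of both sexes, where a filled point has an adjusted p under 0.05. Filled points appear for C3 (0.49) and C4b (0.94) over both sexes, and the intervals of C2 are the widest.

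Activating components were next set against inhibitors over the 4 groups. Each gene was centred on its mean over the 8 young arrays, and the 3 activators and the 3 inhibitors were averaged on each array. The activators averaged -0.09 ± 0.90 in young females and 0.29 ± 0.21 in aged females (SD, n = 4 each), and 0.09 ± 0.55 in young males and 0.60 ± 0.42 in aged males. The inhibitors averaged 0.06 ± 0.16, 0.34 ± 0.20, -0.06 ± 0.12 and 0.19 ± 0.03 in the same order. Activators thus lay 0.38 higher in aged females and 0.51 higher in aged males, and inhibitors 0.28 and 0.24 higher. The difference, activators minus inhibitors, moved by 0.10 in females and 0.27 in males. With 1 array left out these shifts ranged from -0.052 to 0.47 in females and from -0.0060 to 0.47 in males, so their direction rested on single arrays. The female shift was 0.47 without female young 4, -0.052 without female young 1 and -0.031 without female young 3, and the male shift was 0.47 without male young 1 and -0.0060 without male young 2. The shifts over all arrays, 0.10 and 0.27, lay below the SD of the difference in each group compared. That SD was 0.75 in young and 0.19 in aged females and 0.61 in young and 0.41 in aged males. With C3 and C4b alone, a choice made after the data were seen, the activators lay 0.77 and 0.66 higher with age, and the difference moved by 0.49 in females and 0.42 in males. On that scale the 4 young females read -0.16, -0.35, -0.10 and 0.42 and the 4 aged females 0.40, 0.29, 0.52 and 0.57. Young males read 0.48, -0.46, -0.08 and 0.24 and aged males 0.41, 0.62, 0.17 and 0.65. The groups overlapped in both sexes, through female young 4 and through male young 1 and 4. These averages over chosen members carry no test. Of the 6 members 5 lay above 0 in females and 6 in males, with median changes of 0.30 and 0.25, where 49.7% and 44.1% of all probes lay above 0 with medians of -0.00099 and -0.022.

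**Figure D3:**
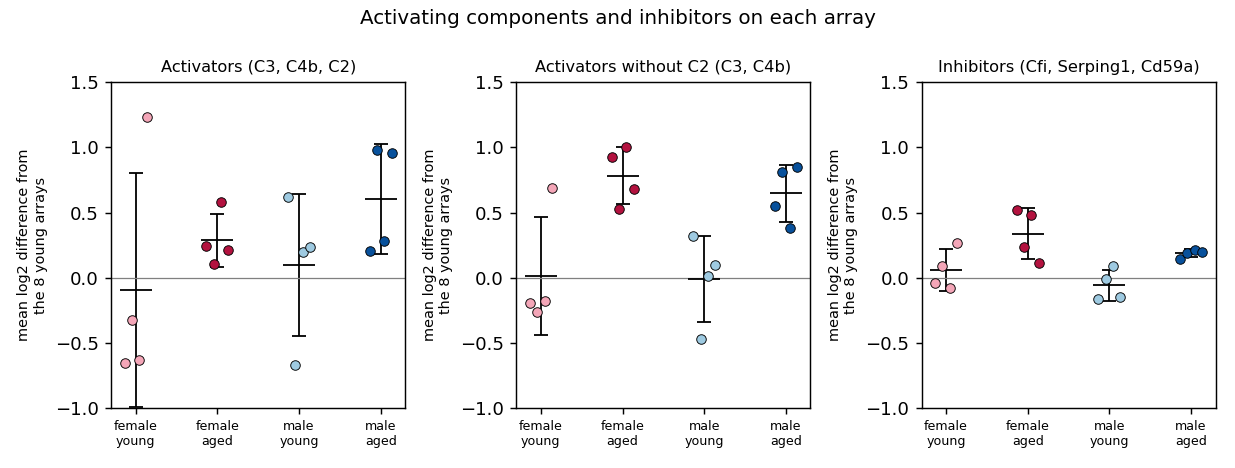
Mean log2 difference from the 8 young arrays, per array and group with mean and SD, for the activators C3, C4b and C2, for C3 and C4b without C2, and for the inhibitors Cfi, Serping1 and Cd59a. Without C2 the aged arrays sit between 0.38 and 1.00 for the activators and between 0.11 and 0.52 for the inhibitors.

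No member differed between the sexes at the threshold, in young or in aged retinas, and the aging change of none differed between them. Limma called 0 of 6 members for sex in young retinas, where 0.393% of probes were called and 0.0799% called higher in males, 0 of 6 in aged retinas, where 0.686% were called and 0.14% called higher, and 0 for the interaction, where 0% were. At an unadjusted p under 0.05 there were 0 members in each of these 3 comparisons, against 15.6%, 12.7% and 9.34% of all probes. The male minus female difference of Cd59a was -0.20 (SE 0.10, 95% interval -0.40 to 0.00075, limma adjusted p = 0.321) in young and -0.20 (SE 0.10, 95% interval -0.40 to 0.0016, limma adjusted p = 0.397) in aged retinas. C2 had the widest sex difference in aged retinas, 1.23 higher in males (SE 0.68, limma adjusted p = 0.486), with an interval from -0.21 to 2.66. The aging change of males minus that of females had 95% intervals of -0.55 to 0.35 for C3 and -0.99 to 0.73 for C4b, so that a C4b difference of almost 1 log2 unit was within the error.

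Genes with the patterns most like C3 and C4b were then listed by the same measure. For C3 they were Stat3 (root mean square difference 0.16), a transcription factor of cytokine signalling, Icam1 (0.19), an adhesion molecule, and H2-Q7 (0.19), an MHC class I gene, against a median of 0.36 over 11024 genes. Like C3, H2-Q7 rose over both sexes by 0.46 (limma adjusted p = 0.01) and Icam1 by 0.51 (limma adjusted p = 0.0397), while Stat3 was 0.32 higher (limma adjusted p = 0.0642). For C4b they were B2m (0.30), the light chain of MHC class I, Upp1 (0.32), uridine phosphorylase, and Rnase4 (0.33), a secreted ribonuclease, against a median of 0.65. Upp1 rose by 0.82 (limma adjusted p = 0.00126) and B2m by 0.61 (limma adjusted p = 0.0445), and Rnase4 was 0.56 higher (limma adjusted p = 0.0682). Leaving out 1 array at a time kept the calls of H2-Q7 and Upp1 (adjusted p up to 0.0297 and 0.00447) and ended that of Icam1 (up to 0.0876) and that of B2m (up to 0.0959). Female young 4, the young array with the highest C4b, also had the highest B2m and Rnase4 of the young arrays, at 10.09 and 6.87. The genes were picked for likeness on these same arrays, so their changes add no independent evidence for C3 and C4b.

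**Figure D4:**
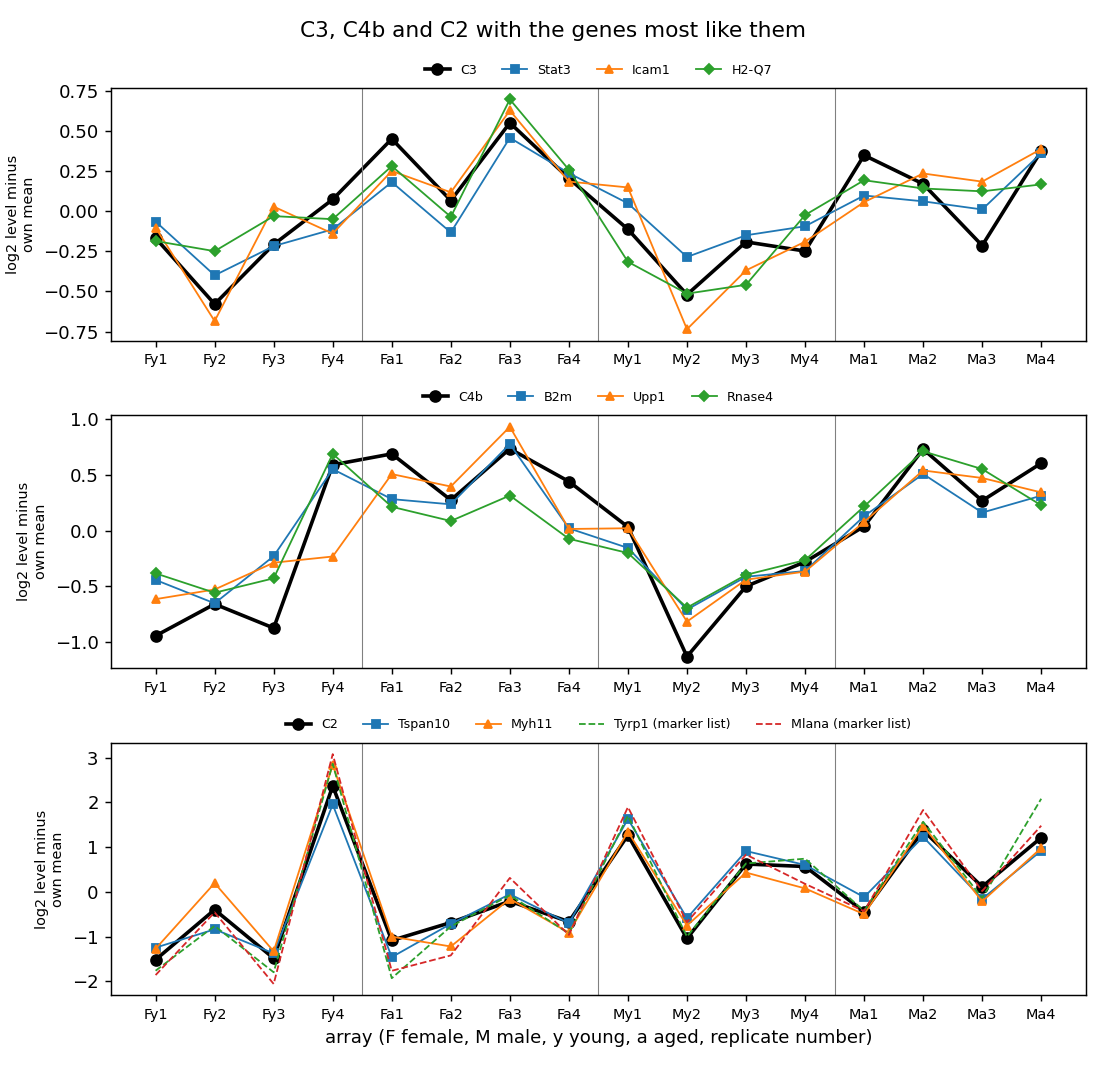
Log2 level minus the gene's own mean on each array (F female, M male, y young, a aged) for C3 and C4b, each with the 3 genes most like it, and for C2 with Tspan10, Myh11, Tyrp1 and Mlana. C2 and its companions peak on female young 4, male young 1, male aged 2 and male aged 4.

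Of 45 other complement genes 40 had a probe and 16 passed the detection filter. Over both sexes 3 of these 16 rose, the C1q subunit genes C1qb (0.91, SE 0.13), C1qc (0.90, SE 0.12) and C1qa (0.56, SE 0.11), and none fell (limma adjusted p = 0.000649, 0.000408 and 0.00678). The median change of the 16 was 0.031, beside a median of -0.0099 for all probes, of which 1.4% were called higher. None of the further regulators tested passed for aging. Of the components of the alternative and terminal routes 3 of 10 were tested, and of the receptors 2 of 9, and none was called. C8b, a chain of the terminal component C8, was 0.49 higher in aged than in young females (SE 0.15, limma adjusted p = 0.281) and -0.19 in males (SE 0.15, limma adjusted p = 0.598). Its aging change in males minus that in females was -0.68 (SE 0.21, limma adjusted p = 0.499), the smallest p for that comparison among the 16 genes, and it missed the threshold. Among aging changes in males Cd59b, a copy of Cd59a, had the smallest p after C1qc and C1qb (0.36, SE 0.12, limma adjusted p = 0.158). Cd59b was lower in young males than in young females (7.12 ± 0.15 against 7.68 ± 0.22, SD, n = 4 each), by -0.55 (SE 0.12, limma adjusted p = 0.0436). C8b and the sex difference of Cd59b were singled out after their values were seen, and the latter missed the threshold in 15 of 26 alternatives (adjusted p up to 0.189 with 1 array left out). The probes of Cd59a and Cd59b may not fully separate the copies, which was not tested.

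**Figure D5:**
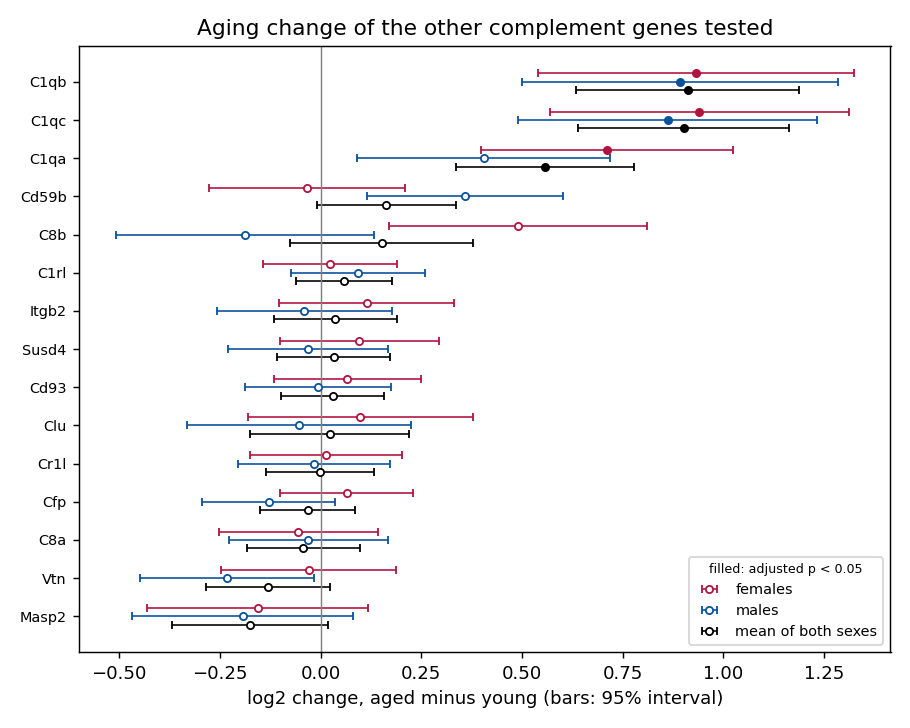
Log2 change from young to aged with 95% intervals for 15 of the 16 other complement genes tested, in females, in males and as the mean of both sexes, where a filled point has an adjusted p under 0.05. The C1q subunit genes stand to the right of 0, and the others drawn have no filled point.

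Markers of other cells were measured on the same arrays. Over both sexes 45.6% of all probes lay above 0, 1.4% were called higher and 0.479% were called lower. Of 10 microglia and macrophage markers, all tested, 10 lay above 0 over both sexes and 5 rose. Their summed linear level, which overlapped between ages in females and not in males, ran from 435 to 545 in young females, 542 to 660 in aged females, 451 to 484 in young males and 598 to 662 in aged males. Of 10 pigment epithelium markers 9 were tested and 6 rose over both sexes, with sums of 2418 to 6009, 3140 to 5091, 3018 to 5293 and 8030 to 11469 in the same order, which likewise overlapped in females and not in males. The pigment markers Mlana (-0.23, SE 0.63) and Tyrp1 (-0.16, SE 0.60) lay below 0 with wide errors. Of the 4 genes tested from the fibroblast list Pdgfra fell over both sexes, by 0.69 (SE 0.12, limma adjusted p = 0.00336). It also fell in females, by 0.82 (SE 0.17, limma adjusted p = 0.029), and the other genes of the list were not called. Pdgfra did not share the array order of Dcn, and its fall alone was not read as a fall of fibroblasts. Of the Müller glia markers 7 of 8 were tested and none was called, with sums between 10482 and 12224 over all arrays. The part of any of these cells in the changes of C3 and C4b was not tested.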

How the data were processed

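The authors deposited probe intensity values of 16 arrays, an average signal per probe that, per the file headers, comes with a detection p-value from the same export. Between 20.7% and 24.2% of intensities per array were below 0, so background had been subtracted. A second deposited table holds the same intensities times 1 factor per array (0.821 to 1.25). The export software and genome build: not given in the sources used here.

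Probes were matched to the 9 genes on their symbol in the file, or else on the bracketed symbol of the definition. Other genes were named through RefSeq symbols and synonyms (24761 of 25697 probes) and given by the brightest tested probe. The neqc function (limma 3.58.1, R 4.3.3) corrected the background, added an offset of 16, quantile-normalised and took log2. A probe entered the limma model if at least 4 of the 16 arrays detected it (detection p-value under 0.05), which had 4 group means and 12 residual degrees of freedom (lmFit, eBayes) and was tested two-sided with Benjamini-Hochberg adjustment over all 15016 probes and a threshold of 0.05. Within groups, arrays had correlations of 0.983 to 0.995, and no array repeated another. The script was tested on simulated data.

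Named genes are all members, other complement genes that passed for aging or had 1 of the 3 smallest p-values in an aging comparison, and the 3 genes most like each member whose group means spanned at least 0.5. Marker genes and C8b were named after their values were seen. Some genes that the rule picks are not reported here. Members and lists were chosen with earlier results of these data known. The alternatives were each array left out in turn, values without background correction, scaling to the median, the authors' second table, a stricter detection filter and none, an intensity trend with robust variances, slide as a fixed or random block (statmod 1.5.0), a replicate block, a fit of the compared groups alone and values within slides.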

Additional observations from a re-analysis of the deposited data

Results flagged for a closer look

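In 36 groups of 4 arrays (the 6 detected genes and the averages of activators, of inhibitors and of their difference, in each of the 4 groups) the gap between the most extreme array and its neighbour was set against the range of the group. The gap passed Dixon's 95% critical value in 2 of them, where chance gives about 1 in 20. Serping1 on male aged 2 read 8.23, the highest of the aged males, with a gap of 0.843 of the range. The activator minus inhibitor difference on female young 4 was 0.96, the highest of the young females, with a gap of 0.874 of the range. On that array C2, Tyrp1, Mlana and Dcn had their highest levels of all 16 arrays, at 8.81, 10.67, 10.21 and 10.84.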

How the results depend on the processing

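The 5 detected members other than C2 kept the sign of their aging change in all 382 values recomputed in females, in males and over both sexes, within-slide values not counted. Within slides 2 of them turned, Serping1 to -0.26 (males, slide 1) and Cfi to -0.032 (males, slide 3), and C2 was -1.71 in males on slide 1. The count of members called over both sexes was 0 without a detection filter and ranged from 1 to 3 with 1 array left out. In females it was 1 (C4b) with slide as a fixed block, which fits female young 4, alone on its slide, exactly. With 1 array left out the count ranged from 0 to 1 in females and from 0 to 1 in males. No member was called for sex or the interaction under any of the alternatives run. C4b stayed called over both sexes in all 16 runs without 1 array (adjusted p up to 0.0498). The activator minus inhibitor change was 0.71 within slide 2 and 0.66 within slide 4 in females and -0.72 within slide 1 (male young 1 and male aged 1, the array of disputed age) and 0.18 within slide 3 (2 arrays against 2) in males. With 1 array left out it ranged from -0.052 to 0.47 in females and from -0.0060 to 0.47 in males. Leaving C2 out, an alternative chosen after seeing the data, gave 0.49 and 0.42.

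Whether equal replicate numbers pair the samples was not settled. Of 24 same-numbered pairs of arrays, 4 had deviations from their group means that correlated above 0.1 (range -0.341 to 0.381). Each correlation ran over the 15016 probes tested, and with so few arrays per group these values cannot exclude a pairing. With the replicate block C3 and C4b stayed called over both sexes (adjusted p = 0.0149 and 0.0254) and no other member was called. The block moved the count of all probes called in males from 149 to 79.

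Beside the within-slide values, signs turned as follows, none of them in a called value. With slide as a fixed block C2 was 0.66 in females, 0.36 over both sexes and -0.60 for the interaction, C3 0.086 and Serping1 0.024 for sex in young retinas, and Serping1 -0.090 for the interaction. With median scaling and with the authors' scaled values C4b was -0.028 and -0.018 for sex in young retinas, and Cd59a -0.010 and -0.026 for the interaction. With 1 array left out the aging change of C2 ranged from -0.82 to 0.47 in females, -0.25 to 0.55 in males and -0.33 to 0.34 over both. For sex in young retinas the ranges were -0.17 to 0.050 for C3, -0.16 to 0.36 for C4b, -0.15 to 0.16 for Cfi and -0.24 to 0.13 for Serping1, and in aged retinas -0.23 to 0.00021 for C4b. For the interaction they were -0.20 to 0.028 for C3, -0.48 to 0.041 for C4b, -0.26 to 1.03 for C2, -0.22 to 0.15 for Serping1 and -0.061 to 0.063 for Cd59a. The causes were not tested.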
